A study of Mus musculus with 12 samples.

Results

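Liver RNA of 3 liver-specific Bmal1 knockout (KO) mice was compared with that of 3 wild-type (WT) mice, all taken at circadian time 12 h (CT12), the start of the subjective night. The comparison used 6 of the 12 samples of the study, and the other 6 were mice of the same genotypes taken at CT0. Genes were included when their mean was 1 RPKM or more in either CT12 group, where RPKM is a read count scaled to transcript length and to the size of the library. For each gene symbol the transcript row with the highest mean over the 12 samples stood for the gene, and 10460 of 22322 symbols passed the filter. Per the labels all mice were C57BL/6 and 8 weeks old, while the study's methods name a C57BL/6J background, males, and ages from 8 weeks upward. The study's methods place its mice in complete darkness for the last 2 days, and say that the RNA of the KO and WT livers was provided by another researcher. The headers of the values name the time as ZT12 and the sample titles as CT12, and the titles were followed here. Mice of both groups came from the line Bmal1 flox/flox, with loxP sites around exon 8 of the gene, and the KO mice also carried a CRE recombinase under a liver-specific promoter that is not named. The sources name no CRE in the WT animals, and the recombinase and the deletion therefore cannot be told apart. The labels speak of 2 mice per genotype and time in the protocol and of 3 replicates in the titles, and the study's methods give 3, which was followed here.

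BMAL1, encoded by Arntl, pairs with CLOCK or NPAS2 and binds E-box elements, where it activates the Per, Cry, Nr1d (REV-ERB) and Dbp genes. PER and CRY proteins then repress this pair, REV-ERB proteins repress Arntl and other genes at RORE elements against the ROR activators, and the PAR bZIP factors DBP, TEF and HLF act at D-box elements on many enzymes of drug and lipid metabolism. In mouse liver the E-box driven genes reach high levels in the second part of the day, so that CT12 is a time at which a lack of BMAL1 can be read on them.

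Depths recovered from the steps of the low values were 13240000 to 16130000 reads, and a single read on a transcript 2 kilobases long equalled 0.031 to 0.0378 RPKM. Principal component 1, with 53.5% of the variance, placed the WT libraries between -22.1 and -19.7 and the KO libraries between 18.7 and 22.4. All 12 hepatocyte markers passed the filter, and their summed level was 50100 to 59800 RPKM in WT and 40400 to 44800 RPKM in KO. Alb carried this drop, since the other 11 summed to 23000 to 25600 RPKM in WT and 26200 to 29000 RPKM in KO, and the median difference of the 12 was 0.05 on the log2 scale. In bulk tissue, fewer cells of a type and less RNA per cell cannot be told apart.

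The first question was how many genes differed at this time. At an adjusted p under 0.05, 1136 of the 10460 genes (10.9%) were called, of which 754 (7.21%) were higher and 382 (3.65%) were lower in KO. The fit was made with limma on log2(RPKM + 1), and differences are given below as KO minus WT on this scale ± the standard error of the fit. Of the called genes, 270 (2.58% of those tested) moved by 1 or more, 163 of them up and 107 down, against 137 up and 137 down after median-ratio scaling. The 3 KO values lay outside the range of the 3 WT values for 3067 genes (29.3%). The higher number of rises depended on the scaling of the libraries. The median gene lay 0.08 higher in KO on the log2 scale, and once each library was scaled by its median ratio the split was 505 higher and 572 lower. All 382 falls and 505 of the 754 rises were called under both scalings, and no gene was called in opposite directions. Without WT replicate 3 at CT12 the number called was 725, of which 447 were higher.

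Albumin moved with this shift. Alb, the main plasma protein and the most abundant transcript of these livers, had 34270, 26610 and 31840 RPKM in WT and 14010, 14230 and 16370 RPKM in KO (-1.05 ± 0.13, adjusted p = 2.9e-04). It held 5.44% to 7% of the reads in WT and 2.86% to 3.34% in KO. RPKM values are shares of the reads of a library, and the part of this fall in the rises of other genes was not tested.

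The targeted gene was examined first. Arntl (ENSMUSG00000055116.6, chromosome 7, 120350979 to 120457636, plus strand of NCBIM37) had 1.26, 0.68 and 1.21 RPKM in WT and 4.37, 3.59 and 4.01 RPKM in KO, so every KO library lay above every WT library (1.29 ± 0.13, adjusted p = 6.1e-05). At CT0 the difference had the opposite sign (-1.21, adjusted p = 5.7e-04), and the difference between the times passed the test (adjusted p = 7e-05). The table holds 1 value per whole transcript, which cannot show the loss of the floxed exon, and therefore Arntl did not check the labels at CT12.

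Both partners of BMAL1 in the activating arm were also high in KO. Clock, the partner of BMAL1, had 7.33, 4.59 and 8.1 RPKM in WT and 14.3, 13.6 and 14.1 RPKM in KO (1.0 ± 0.15, adjusted p = 9.2e-04). Npas2, which can stand in for CLOCK, had 0.0293, 0.0161 and 0.0176 RPKM in WT, or 2, 1 and 1 reads, and 3.85, 3.19 and 3.37 RPKM in KO (2.13, adjusted p = 1.2e-06). The ratio of its reads was 163 and the lower end of its 95% interval, which covers counting error only, was 63.3. For Rora, an activator at RORE elements, the values 13.4, 16.5 and 12.4 RPKM in WT and 16.5, 15 and 17.9 RPKM in KO overlapped (0.22 ± 0.11, adjusted p = 0.23). Thus 3 of 4 tested members rose, and Arntl2, a second BMAL gene, stayed under the filter.

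Among the 10 repressors, 4 fell and 1 rose. Gm129, also known as Ciart, a repressor of the BMAL1 complex, went from 14.5, 15.2 and 21.3 RPKM in WT to 0.373, 3.45 and 1.57 RPKM in KO (-2.82 ± 0.32, adjusted p = 1.4e-04), measured on a row of 372 bases with 2, 17 and 8 reads in KO. Nr1d2, which encodes REV-ERB beta, had 17.5, 19.4 and 17 RPKM in WT and 2.81, 4.89 and 4.24 RPKM in KO (-1.95 ± 0.22, adjusted p = 1.3e-04). Its paralog Nr1d1 was already low in WT at this time, with 2.35, 2.95 and 1.56 RPKM against 0.969, 1.61 and 1.56 RPKM in KO (-0.46, adjusted p = 0.41), and the groups overlapped by a small margin. The Period genes encode the repressors that enter the nucleus with CRY. Per3 had 6.21, 9.22 and 5.57 RPKM in WT and 1.63, 1.94 and 1.67 RPKM in KO (-1.52 ± 0.16, adjusted p = 1.1e-04), and Per2 had 8.95, 10.8 and 10.1 RPKM and 6.43, 6.08 and 4.18 RPKM (-0.75 ± 0.18, adjusted p = 0.021). Per1 did not pass, with 6.5, 7.96 and 8.72 RPKM in WT and 7.97, 5.94 and 5.16 RPKM in KO on a row of 496 bases (-0.26, adjusted p = 0.66).

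Cry1 was the one repressor that rose. It encodes the cryptochrome with the stronger repressing activity and is known to be under RORE control as well as E-box control. It had 4.9, 4.41 and 4.9 RPKM in WT and 16, 16 and 17.7 RPKM in KO (1.62 ± 0.10, adjusted p = 2.1e-06), with a similar difference at CT0 (1.64). Its paralog Cry2 had 6.8, 7.25 and 5.66 RPKM in WT and 8.67, 6.99 and 8.06 RPKM in KO (0.24, adjusted p = 0.32). Bhlhe40 and Bhlhe41 encode the DEC repressors, which compete for E-boxes. Bhlhe40 overlapped between the groups (-0.27, adjusted p = 0.47), and Bhlhe41 was uneven within them, with 3.58, 3.48 and 0.1 RPKM in WT and 0.186, 0 and 0.984 RPKM in KO (-1.09, adjusted p = 0.3).

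The PAR bZIP factors carry the rhythm to output genes through the D-box. Dbp had 21.7, 33.4 and 17.3 RPKM in WT and 3.29, 8.11 and 4.66 RPKM in KO (-2.00 ± 0.27, adjusted p = 4.8e-04). Tef had 45.1, 45 and 46.9 RPKM in WT and 21.4, 26.3 and 22.4 RPKM in KO, with narrow spread in both groups (-0.94 ± 0.11, adjusted p = 1.5e-04), on a row of 477 bases. For Hlf the values of 4.61, 7.48 and 6.02 RPKM in WT and 4.71, 3.54 and 3.55 RPKM in KO overlapped (-0.50, adjusted p = 0.081). Nfil3, which represses at the same elements, had 5.88, 4.44 and 5.74 RPKM in WT and 7.77, 5.37 and 5.71 RPKM in KO (0.19, adjusted p = 0.47). At this time 2 of the 3 D-box activators were therefore low, and the difference for the repressor was 0.19 with a 95% confidence interval of -0.13 to 0.52.

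**Figure D1:**
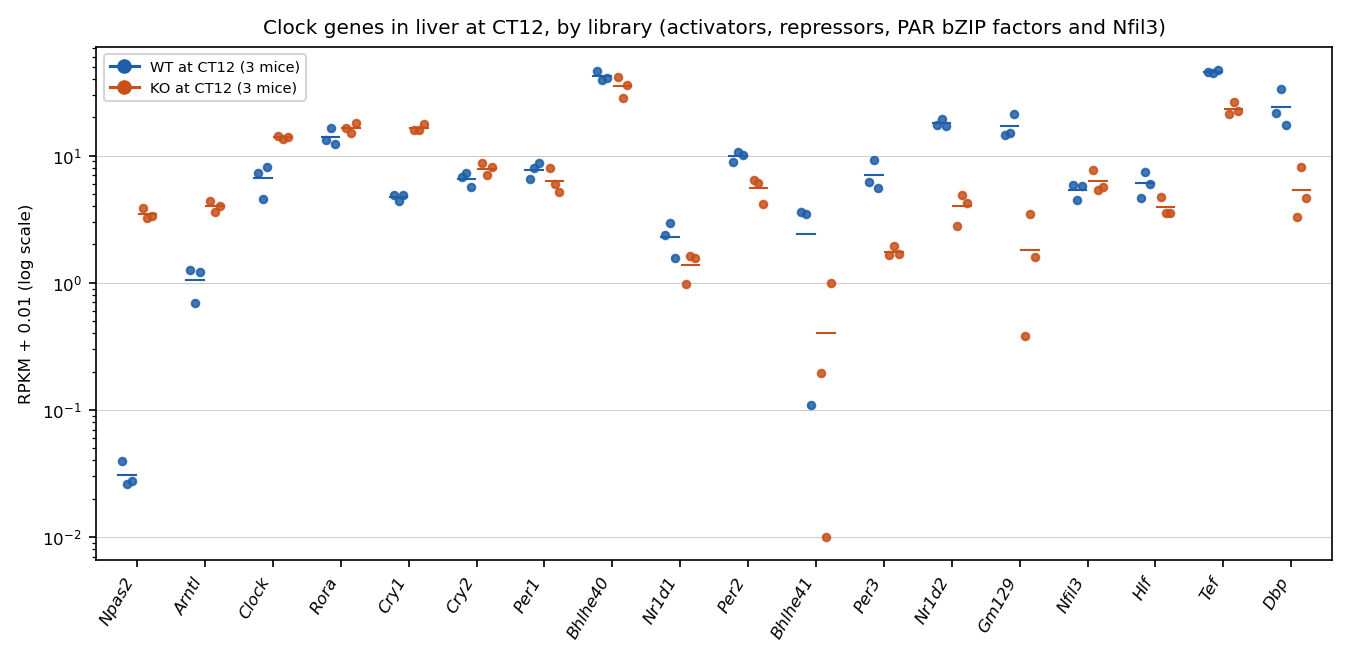
RPKM plus 0.01 on a log axis for the clock genes that passed the filter, in the 3 WT (blue) and 3 KO (orange) libraries at CT12, with the group means as bars. Npas2, Arntl, Clock and Cry1 lie higher in all KO libraries, and Per2, Per3, Nr1d2, Gm129, Tef and Dbp lie lower in all of them.

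Promoters were then searched for the elements that these factors bind. RefSeq promoters of build GRCm38.p6, from 250 bases before to 50 bases after the start site, were matched to 8372 of the tested genes and to 17 of the 19 clock genes listed. The E-box CACGTG, the D-box TTATGTAA and the RORE consensus were searched on both strands, and the 3 motifs are described as letters in a window, not as bound sites. The E-box was held by 11.9% of tested genes with a promoter, 12.7% of those higher in KO and 14.4% of those lower. The D-box was held by 0.717% of tested genes (60 of 8372), 0.5% of those higher (3 of 600) and 5.35% of those lower in KO (16 of 299). Among genes lower by 1 or more on the log2 scale the share was 11% (9 of 82), and among genes higher by 1 or more it was 0 of 134. The RORE was held by 0.251% of tested genes (21 of 8372), 1.33% of those higher (8 of 600), 2.99% of those higher by 1 or more (4 of 134) and none of the 299 lower genes. In all 27025 promoters of the table the shares were 8.09% for the E-box, 1.11% for the D-box and 0.459% for the RORE. These shares are a description with no test, and 3 of the 9 genes named next are neighbouring, similar Ces1 genes.

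**Figure D2:**
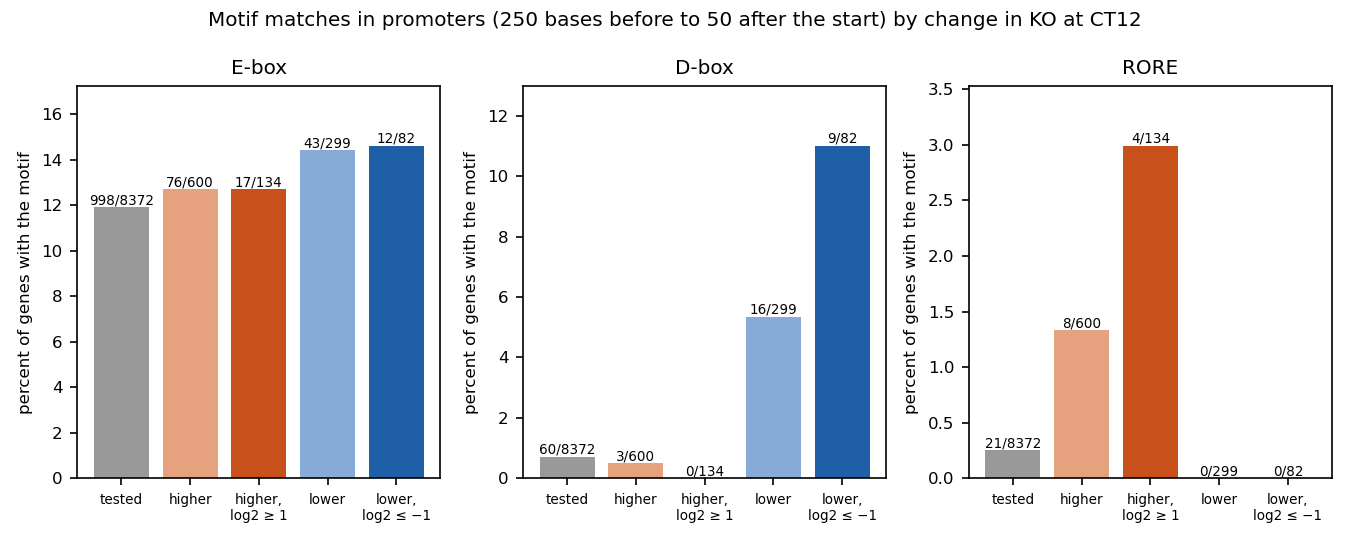
Percent of genes with a promoter that hold each motif (y axis, a scale of its own in each panel), for all genes tested, genes higher in KO and genes lower in KO at CT12, with those that moved by 1 or more (log2) as bars of their own. The D-box panel rises from 0.717% of tested genes to 11% of the strongly lower genes, and the RORE panel to 2.99% of the strongly higher genes.

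The D-box windows of the genes that fell by 1 or more are shown because 9 of 82 such genes hold the motif. They are printed along the strand of the gene with the D-box in capitals, which reads TTACATAA where the match is on the other strand. Windows that reach a start site are cut to 30 bases.
Ces1b, chr8:93080006-93080035, minus strand: gagggggagctTTATGTAAttatgctaatt
Ces1e, chr8:93229673-93229720, minus strand: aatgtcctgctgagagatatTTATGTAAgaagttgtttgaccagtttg
Ces1g, chr8:93337414-93337459, minus strand: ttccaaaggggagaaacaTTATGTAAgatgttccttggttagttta
Slc22a26, chr19:7802641-7802670, minus strand: tgttcttgctaTTATGTAAgatagtggtcc
Per3, chr4:151044843-151044890, minus strand: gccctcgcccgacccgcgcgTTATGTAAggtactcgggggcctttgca
Per3, chr4:151044796-151044843, minus strand: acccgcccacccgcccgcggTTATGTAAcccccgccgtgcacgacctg
Coq10b, chr1:55052588-55052635, plus strand: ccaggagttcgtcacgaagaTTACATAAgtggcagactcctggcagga
Map2k6, chr11:110478265-110478311, plus strand: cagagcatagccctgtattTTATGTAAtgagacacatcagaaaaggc
Alb, chr5:90460627-90460674, plus strand: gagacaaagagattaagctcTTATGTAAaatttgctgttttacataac
Slc16a12, chr19:34747377-34747424, minus strand: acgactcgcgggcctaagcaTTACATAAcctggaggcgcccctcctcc
Alb holds a second D-box in the same window, in lower case near its right end. Per3 carries 2 D-boxes close together, and these 9 genes include a clock repressor, a plasma protein, 3 carboxylesterases, a pair of solute carriers, a coenzyme Q binding protein and a MAP kinase kinase.

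In all 9 genes every KO value lay below every WT value, which their choice as called falls of 1 or more made likely. Among all genes tested, 29.3% had no overlap, in either direction. Coq10b, needed for the function of coenzyme Q in respiration, had 28.4, 29.6 and 28.8 RPKM in WT and 11.2, 10.4 and 11.2 RPKM in KO (-1.32 ± 0.23, adjusted p = 0.0034). Slc16a12, a monocarboxylate transporter family member, had 35.5, 36.9 and 35.3 RPKM in WT and 17.4, 15.2 and 17.8 RPKM in KO (-1.05 ± 0.11, adjusted p = 6.1e-05). Map2k6, which activates the p38 kinases, had 7.02, 6.19 and 4.51 RPKM in WT and 1.41, 2.08 and 2.65 RPKM in KO (-1.18 ± 0.19, adjusted p = 0.0019). For Slc22a26, an organic anion transporter family member, WT was uneven with 2.1, 1.39 and 6.32 RPKM, and KO had 0.173, 0 and 0.438 RPKM (-1.67 ± 0.35, adjusted p = 0.0095). The other genes with a D-box that fell by less were Gde1, Wnt5b, 4931406C07Rik, Prnp, Peli2, Acsm3 and Hdgf, with log2 fold changes from -0.89 for Gde1 to -0.39 for Hdgf. The 3 genes with a D-box that rose were H6pd (0.46), Rabggtb (0.60) and Slc17a1 (0.91).

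The RORE windows of the genes that rose by 1 or more are shown for the same reason, with the match in capitals.
Arntl, chr7:113207528-113207556, plus strand: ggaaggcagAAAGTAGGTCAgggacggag
Bhmt, chr13:93637832-93637882, minus strand: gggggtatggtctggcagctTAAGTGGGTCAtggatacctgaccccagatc
Apcs, chr1:172895140-172895190, minus strand: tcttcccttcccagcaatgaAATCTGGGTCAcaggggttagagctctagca
Leo1, chr9:75441437-75441487, plus strand: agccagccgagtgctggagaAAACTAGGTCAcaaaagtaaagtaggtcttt
The Arntl match lies 26 bases after the second of its start sites in the table. Bhmt, which remethylates homocysteine with betaine, had 664, 361 and 432 RPKM in WT and 1737, 1250 and 1965 RPKM in KO (1.79 ± 0.24, adjusted p = 5.6e-04). Leo1, a subunit of the PAF1 elongation complex, had 2.57, 4.32 and 3.67 RPKM in WT and 8.86, 7.96 and 7.51 RPKM in KO (1.03 ± 0.14, adjusted p = 5.3e-04). Apcs, the serum amyloid P component, is described with the plasma proteins. The other 4 rises with a RORE were Tpst2 (0.70), Hps1 (0.54), Fam82a1 (0.52) and Kdm4c (0.50).

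E-box windows are shown for the clock repressors that moved furthest in each direction, with the E-box in capitals.
Gm129, chr3:95882309-95882374, minus strand: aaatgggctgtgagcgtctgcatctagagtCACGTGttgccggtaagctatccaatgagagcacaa
Gm129, chr3:95882251-95882316, minus strand: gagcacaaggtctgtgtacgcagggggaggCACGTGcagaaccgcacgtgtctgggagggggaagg
Cry1, chr10:85185079-85185144, minus strand: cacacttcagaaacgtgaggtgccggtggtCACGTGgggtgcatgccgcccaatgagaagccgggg
Gm129 holds 3 E-boxes within its window and fell, while Cry1 holds 1 and rose. Bhlhe41, Per1 and Tef also hold an E-box. The other clock genes with a promoter do not hold one in this window, among them Dbp, Nr1d2 and Per3, which fell, and Arntl.

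The next question was which genes moved most. Elovl3, which lengthens very long chain fatty acids, showed the largest rise (chromosome 19, 46206387 to 46210184, plus strand of NCBIM37). It had 7.19, 7.31 and 7.14 RPKM in WT and 239, 295 and 185 RPKM in KO (4.85 ± 0.16, adjusted p = 1.5e-08). The WT libraries were nearly equal, and the KO libraries lay far above them. Lpl, the lipase that frees fatty acids from circulating lipoproteins and is low in adult liver, had 3.59, 2.75 and 2.32 RPKM in WT and 59.5, 53.9 and 51.2 RPKM in KO (3.86 ± 0.33, adjusted p = 1.6e-05). Insig2 holds the sterol sensor complex in the endoplasmic reticulum, and its row of 204 bases had 18.5, 14 and 28.1 RPKM in WT and 152, 184 and 281 RPKM in KO (3.29 ± 0.24, adjusted p = 5.6e-06). Cdkn1a, an inhibitor of cyclin-dependent kinases, had 0.227, 0.606 and 1.52 RPKM in WT and 12.8, 10.2 and 14.3 RPKM in KO (2.97 ± 0.33, adjusted p = 1.3e-04). Tubb2a, a beta tubulin, had 4.66, 4.26 and 7.86 RPKM in WT and 47.6, 45.4 and 56.1 RPKM in KO (2.98 ± 0.29, adjusted p = 4.7e-05).

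Other genes among the 12 largest rises were nearly silent in WT. Loxl4, a lysyl oxidase family member that cross-links matrix, had 0.354, 0.449 and 0.557 RPKM in WT and 11.4, 9.07 and 13.3 RPKM in KO (3.06 ± 0.22, adjusted p = 4.6e-06). The sodium phosphate carrier Slc34a2 had 0.0992, 0.0363 and 0.0795 RPKM in WT, or 3, 1 and 2 reads, and 7.03, 8.3 and 7.34 RPKM in KO (2.99, adjusted p = 3.3e-06), a ratio of reads of 104 with a 95% counting interval of 47.6 to 285. Spon2, a secreted matrix protein, had 0.527, 0.7 and 0.6 RPKM in WT and 6.2, 10.9 and 14.1 RPKM in KO (2.76 ± 0.21, adjusted p = 8.4e-06). Grk5, a kinase of G protein-coupled receptors, had 1.06, 0.516 and 0.848 RPKM in WT and 8.06, 11.8 and 12.2 RPKM in KO (2.68 ± 0.16, adjusted p = 1.7e-06). A lack of overlap between the groups was a condition of the choice of these 4 genes. Their WT means were under 1 RPKM, so they passed the filter through KO alone. The log2(RPKM + 1) scale understates the change of genes as low as these. The remaining members of the 12 were Gstm3, Gstm2 and Cyp2c55, described with their families.

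Rgs16, which speeds the shutdown of G protein signals, showed the largest fall (chromosome 1, 155587479 to 155592598, plus strand of NCBIM37). It had 34.5, 17.4 and 22.7 RPKM in WT and 0.178, 0.0323 and 0.188 RPKM in KO (-4.46 ± 0.71, adjusted p = 0.0017), and its KO values stood for 6, 1 and 6 reads. Upp2, a uridine phosphorylase, had 372, 337 and 325 RPKM in WT and 45.7, 62.6 and 47.8 RPKM in KO (-2.72 ± 0.19, adjusted p = 3.9e-06). D0H4S114 had 29.4, 13.6 and 22.2 RPKM in WT and 1.42, 3.29 and 2 RPKM in KO (-2.79 ± 0.27, adjusted p = 4.1e-05). Col27a1, a fibrillar collagen gene, had 7.05, 11.5 and 7.49 RPKM in WT and 0.483, 0.625 and 0.337 RPKM in KO (-2.68 ± 0.26, adjusted p = 5e-05). For these falls too, a lack of overlap between the groups was a condition of the choice. The acetyltransferase-like genes Cml5 (-2.68, adjusted p = 9.6e-04) and Nat8 (-2.50, adjusted p = 1.2e-05) fell together, but they are similar in sequence and how shared reads were counted is not known. The other members of the 12 largest falls were Cyp2a5, Cyp2a4, Gm129, Ces1d, Acot3 and Thrsp.

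**Figure D3:**
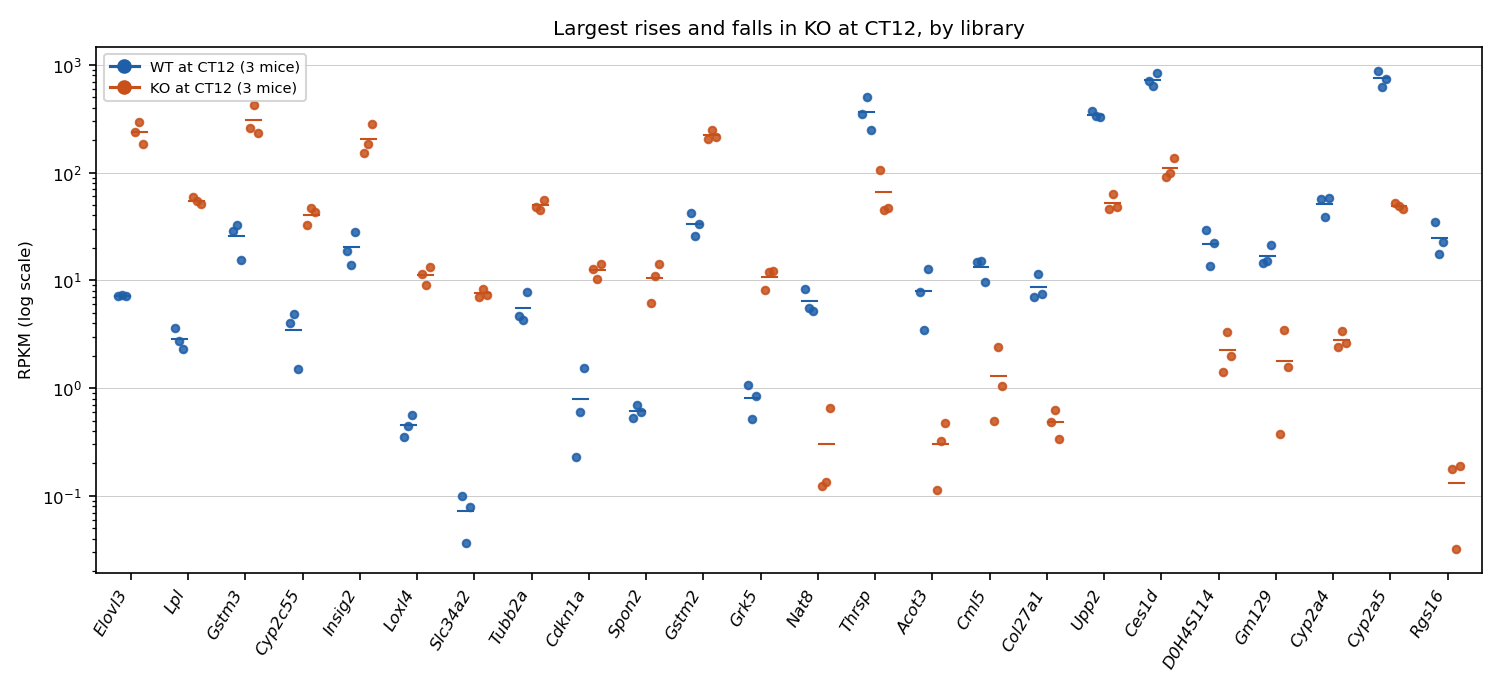
RPKM on a log axis for the 12 largest rises (left) and the 12 largest falls (right) at CT12 among called genes without overlap, with 1 point per library (WT blue, KO orange) and the group means as bars. In Elovl3 the WT libraries sit near 7 RPKM and the KO libraries between 185 and 295 RPKM, and in Rgs16 all KO libraries sit below 0.2 RPKM.

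Genes were then grouped by pathway, and each count is set against 7.21% higher and 3.65% lower among all genes. Counts run over the members that passed the filter, and genes that passed through 1 group alone were more likely to differ. Drug metabolism began with its regulators, of which 2 of 8 tested fell. Por gives electrons to all microsomal cytochromes P450, and its row of 918 bases had 207, 171 and 207 RPKM in WT and 68.3, 46.4 and 47.4 RPKM in KO (-1.85 ± 0.21, adjusted p = 1.3e-04). Nr1i3, the xenobiotic receptor CAR, had 121, 117 and 147 RPKM in WT and 56.9, 68 and 92.1 RPKM in KO (-0.84 ± 0.20, adjusted p = 0.021). Cyb5, another electron donor to these enzymes, had 1122, 999.7 and 1100 RPKM and 812, 884 and 909.5 RPKM (-0.31, adjusted p = 0.093) and passed the test after median-ratio scaling (adjusted p = 0.04). Under that scaling 4 of the 8 fell.

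Of 42 tested cytochrome P450 genes of families 1 to 3 (59 listed), 8 rose and 5 fell. Cyp2a5, the coumarin hydroxylase, fell from 879, 622 and 745 RPKM in WT to 52.7, 48.5 and 45.9 RPKM in KO (-3.89 ± 0.20, adjusted p = 1.2e-06), on a row of 442 bases. Its near-identical neighbour Cyp2a4, a steroid hydroxylase, had 56.9, 38.6 and 57.5 RPKM in WT and 2.42, 3.39 and 2.6 RPKM in KO (-3.76 ± 0.22, adjusted p = 1.7e-06), and reads shared by the pair make both values uncertain. Cyp2d40 had 30.5, 39.5 and 28.3 RPKM in WT and 11, 10.5 and 11.6 RPKM in KO (-1.48 ± 0.18, adjusted p = 2.8e-04). In the other direction, Cyp2c55 had 3.98, 4.92 and 1.5 RPKM in WT and 32.4, 46.5 and 42.8 RPKM in KO (3.30 ± 0.29, adjusted p = 2.3e-05). Cyp2b10, the classic target of CAR, had 1.84, 0.598 and 3.85 RPKM in WT and 11.5, 6.76 and 20.4 RPKM in KO (2.19 ± 0.48, adjusted p = 0.013), and so rose while the receptor gene fell. Cyp3a59 rose as well (1.26, adjusted p = 0.0082), whereas the abundant Cyp2e1 had 3812, 3370 and 4026 RPKM in WT and 3320, 2945 and 2938 RPKM in KO (-0.28, adjusted p = 0.42).

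The conjugating enzymes split by family. All 7 Gstm glutathione transferases tested rose, by 0.72 for Gstm5 to 3.54 for Gstm3, and no other member of the 21 glutathione transferases tested (24 listed) rose. Gstm3 had 29, 32.5 and 15.3 RPKM in WT and 257, 426 and 233 RPKM in KO (3.54 ± 0.38, adjusted p = 9.3e-05), Gstm2 had 41.9, 25.8 and 33.3 RPKM and 206, 249 and 216 RPKM (2.72 ± 0.23, adjusted p = 1.6e-05), and Gstm6 rose by 1.63 (adjusted p = 8.4e-06). These genes lie side by side and are similar, so that shared reads may link their values. Gsta2 (-1.43, adjusted p = 0.0099), Gsta3 (-0.73, adjusted p = 0.0037), Gstt2 (-1.66, adjusted p = 0.033) and Mgst3 (-0.70, adjusted p = 0.033) fell, with the last pair lost in 7 alternatives each. Gsta3 was the most abundant of these, with 1450, 1236 and 1382 RPKM in WT and 868, 769 and 808 RPKM in KO. Mgst1, at 2829, 2553 and 2729 RPKM in WT and 2616, 2709 and 2620 RPKM in KO, overlapped (-0.03, adjusted p = 0.89).

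Of 25 tested sulfotransferases and glucuronosyltransferases (37 listed), 11 fell and 2 rose. The Ugt1a genes conjugate bilirubin and many drugs, and 9 of them fell by 0.59 to 0.67. They share their last exons at 1 locus, so these are not 9 separate measurements. Ugt1a1, the bilirubin enzyme, had 461, 416 and 427 RPKM in WT and 268, 256 and 312 RPKM in KO (-0.64 ± 0.11, adjusted p = 0.0035), and the row for Ugt1a9 fell by a like amount (-0.67, adjusted p = 0.0022). Sult1a1, which sulfates phenols, had 269, 201 and 240.1 RPKM in WT and 132, 92 and 159 RPKM in KO (-0.91 ± 0.18, adjusted p = 0.007). Sult1e1, the estrogen sulfotransferase, had 0.148, 0.162 and 0.414 RPKM in WT and an uneven 11.5, 4.74 and 1.22 RPKM in KO (2.13 ± 0.62, adjusted p = 0.048), a call lost in 11 alternatives, and the rise of Sult1b1 (0.51, adjusted p = 0.044) was lost in 13. After median-ratio scaling 11 fell and neither rise was called. Ugt2b36 had 541, 527 and 495 RPKM in WT and 545, 634 and 576 RPKM in KO (0.16, adjusted p = 0.29).

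The carboxylesterases hydrolyse esters of drugs and lipids, and 5 of 12 tested (18 listed) fell while none rose (median log2 fold change -0.41). Ces1d had 711, 631 and 843 RPKM in WT and 90.6, 98.8 and 138 RPKM in KO (-2.74 ± 0.17, adjusted p = 2.2e-06). Ces1e had 99.1, 88.8 and 111 RPKM in WT and 26.6, 24.5 and 36.9 RPKM in KO (-1.75 ± 0.14, adjusted p = 1.3e-05), and Ces1b had 39.5, 29.9 and 45.2 RPKM and 5.72, 14.9 and 10.4 RPKM (-1.86 ± 0.31, adjusted p = 0.0022). The promoters of Ces1b, Ces1e and Ces1g are among the D-box windows printed above. The abundant Ces1c had 1795, 1735 and 2007 RPKM in WT and 1409, 1403 and 1767 RPKM in KO (-0.28, adjusted p = 0.12). Among 17 tested genes of the NRF2 antioxidant response, Hmox1 alone was called (0.47, adjusted p = 0.045), a call lost in 13 alternatives, and Prdx1 had 894, 837 and 907 RPKM in WT and 952, 1065 and 1068 RPKM in KO (0.22, adjusted p = 0.12).

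Lipid genes moved in different directions by pathway. Of 20 cholesterol synthesis genes 10 rose, also after median-ratio scaling, with a median log2 fold change of 0.72 against 0.08 over all genes. Hmgcs1, at the entry of the pathway, had 32.5, 57.1 and 48.8 RPKM in WT and 186, 158 and 129 RPKM in KO (1.77 ± 0.27, adjusted p = 0.0011). Mvd, the mevalonate decarboxylase, had 5.35, 14.3 and 5.38 RPKM in WT and 25.6, 20.9 and 17.7 RPKM in KO (1.38 ± 0.35, adjusted p = 0.026), and the sterol cyclase Lss had 14.3, 22.8 and 16.4 RPKM and 46.7, 39.8 and 27.3 RPKM (1.04 ± 0.26, adjusted p = 0.024). WT replicate 2 stood above the other WT libraries in all 3, and the call of Mvd was lost in 5 alternatives. Hsd17b7, Idi1, Fdft1, Sc4mol, Mvk, Cyp51 and Sqle rose by 0.72 to 0.90. Fdps, the most abundant member that did not pass, had 149, 216 and 145 RPKM in WT and 374, 242 and 229.6 RPKM in KO (0.72, adjusted p = 0.13). Of 13 genes of sterol sensing and uptake, Insig2 alone was called, and Lcat had 182, 158 and 227 RPKM in WT and 203, 199.8 and 215 RPKM in KO (0.14, adjusted p = 0.54).

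Of 22 genes of fatty acid and triglyceride synthesis, 5 fell and Elovl3 rose, with a median of -0.83. Thrsp, a lipogenic gene that responds to thyroid hormone, had 348, 505 and 248 RPKM in WT and 105, 45.1 and 46.8 RPKM in KO (-2.52 ± 0.68, adjusted p = 0.034), a call lost in 6 alternatives. Srebf1 and Mlxipl encode the factors SREBP1 and ChREBP that drive this pathway. Srebf1 had 58.8, 106 and 60 RPKM in WT and 39.7, 36.3 and 31.4 RPKM in KO (-0.99 ± 0.21, adjusted p = 0.0092), and Mlxipl had 44.5, 60.3 and 46.8 RPKM and 29.4, 22.6 and 25 RPKM (-0.95 ± 0.23, adjusted p = 0.02). The desaturase Fads2 had 270.3, 264 and 334 RPKM in WT and 123, 148 and 142 RPKM in KO (-1.06 ± 0.14, adjusted p = 4.6e-04), and Lpin2 was the remaining fall (-0.91, adjusted p = 0.016). Fatty acid synthase did not pass, with 59.4, 185 and 56.4 RPKM of Fasn in WT and 60.9, 44.8 and 34.6 RPKM in KO (-0.89, adjusted p = 0.4), and WT replicate 2 was again the highest. Scd1 had 979, 1101 and 1089 RPKM in WT and 656, 275 and 654 RPKM in KO (-1.10, adjusted p = 0.17).

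In fatty acid oxidation and ketogenesis, 8 of 25 genes fell and 1 rose, with a median of -0.38. Ppara encodes the nuclear receptor of this pathway and had 56.6, 62.7 and 65 RPKM in WT and 24.6, 28 and 36.2 RPKM in KO (-1.04 ± 0.12, adjusted p = 1.4e-04). Several targets of this receptor were uneven within the groups and their calls were fragile. Cyp4a10 had 209.7, 80.3 and 359 RPKM in WT and 22.5, 32.4 and 105 RPKM in KO, with overlap (-2.07, adjusted p = 0.041). Vnn1 fell by 1.30 (adjusted p = 0.044) and Acot1 had 8.71, 3.67 and 12.1 RPKM and 0.934, 1.07 and 3.33 RPKM (-1.70, adjusted p = 0.017). The calls of Cyp4a10, Vnn1, Fabp1 (-1.05) and Cpt1a (-0.52) were each lost in 9 alternatives. Pdk4, which shuts glucose carbon out of the mitochondrion, rose from 0.961, 0.841 and 0.984 RPKM to 3.24, 3.88 and 3.78 RPKM (1.26 ± 0.24, adjusted p = 0.0052).

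Among 21 lipoprotein genes, Lpl and the hepatic lipase Lipc rose, and the endothelial lipase Lipg fell. Lipc had 60.7, 64.9 and 63.7 RPKM in WT and 91.6, 95.3 and 115 RPKM in KO (0.66 ± 0.12, adjusted p = 0.0047), and Lipg had 4.26, 7.82 and 9.02 RPKM and 1.45, 1.74 and 2.61 RPKM (-1.42 ± 0.25, adjusted p = 0.0032). The apolipoprotein Apoe lay close in both, with 11070, 9227 and 9715 RPKM in WT and 9568, 9546 and 10110 RPKM in KO (-0.03, adjusted p = 0.86). Of 20 bile acid genes, 3 rose and 2 fell. Abcb11, the pump that exports bile salts into the canaliculus, had 93.9, 88.9 and 88.4 RPKM in WT and 171, 205 and 209 RPKM in KO (1.10 ± 0.11, adjusted p = 7.7e-05). Fgfr4, the receptor for the gut signal that limits bile acid synthesis, had 4.63, 5.16 and 6.46 RPKM in WT and 12.8, 10.8 and 7.99 RPKM in KO (0.84 ± 0.17, adjusted p = 0.0084), and the uptake carrier Slco1a4 also rose (0.71, adjusted p = 0.024). The carriers Slco1a1 (-0.64, adjusted p = 0.034) and Abcc2 (-0.36, adjusted p = 0.028) fell, each call being lost in 5 alternatives, which for Abcc2 were those without WT replicate 2 or 3 or any 1 KO replicate at CT12. Slc27a5, which activates bile acids, overlapped with 475, 372 and 451 RPKM in WT and 456, 412 and 452 RPKM in KO (0.03, adjusted p = 0.89).

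Of 21 glucose genes, 3 rose and 2 fell. Gys2, the liver glycogen synthase (chromosome 6, 142371133 to 142421629, minus strand of NCBIM37), had 157, 137 and 140.0 RPKM in WT and 34.5, 41.4 and 40.2 RPKM in KO (-1.88 ± 0.13, adjusted p = 3.3e-06). Slc2a2, the glucose carrier GLUT2, had 159.8, 164 and 124 RPKM in WT and 57, 44.2 and 85.1 RPKM in KO (-1.29 ± 0.27, adjusted p = 0.0091). Ppp1r3c, which targets a phosphatase to glycogen, had 9.62, 8.14 and 17.3 RPKM in WT and 54.2, 35.1 and 49.8 RPKM in KO (1.94 ± 0.26, adjusted p = 4.4e-04). Thus the synthase fell while a glycogen-targeting subunit rose. Irs2, an adaptor of the insulin receptor, had 1.53, 1.46 and 0.76 RPKM in WT and 4.15, 4.02 and 3.24 RPKM in KO (1.11 ± 0.21, adjusted p = 0.0046), and Gckr, the inhibitor of glucokinase, had 68.8, 74.5 and 60.4 RPKM and 123, 105 and 118 RPKM (0.76 ± 0.12, adjusted p = 0.0022).

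In NAD metabolism, 3 of 20 genes fell and 2 rose. Nampt, the rate-limiting enzyme of NAD salvage, had 48.2, 35.7 and 41.9 RPKM in WT and 14, 15.1 and 15.6 RPKM in KO (-1.42 ± 0.11, adjusted p = 6.6e-06). The nicotinamide riboside kinase Nmrk1 had 25.4, 24.2 and 23.4 RPKM in WT and 8.43, 9.63 and 8.79 RPKM in KO (-1.35 ± 0.14, adjusted p = 7.5e-05). Both salvage enzymes were low in each KO library. Kynu, of the synthesis from tryptophan, rose from 65.7, 58.2 and 55.9 RPKM to 122, 111 and 117 RPKM (0.95 ± 0.13, adjusted p = 5e-04). Nmnat3 rose by 0.44 (adjusted p = 0.016), the fall of Nadk (-0.40, adjusted p = 0.049) was lost in 13 alternatives, and Haao had 303, 282 and 271 RPKM in WT and 312, 290.1 and 335 RPKM in KO (0.13, adjusted p = 0.51).

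In the urea cycle and amino acid metabolism, 3 of 25 genes fell and 2 rose. Asl, which splits argininosuccinate, had 506, 339 and 382 RPKM in WT and 217, 204 and 181 RPKM in KO (-1.01 ± 0.19, adjusted p = 0.0051). Ahcy, which clears S-adenosylhomocysteine, had 887, 558 and 788 RPKM in WT and 401, 393 and 403 RPKM in KO (-0.87 ± 0.15, adjusted p = 0.0034). The arginine carrier Slc7a2 fell by a smaller amount (-0.54, adjusted p = 0.0041), the ornithine carrier Slc25a15 rose (0.58, adjusted p = 0.011), and the rise of Nags (0.32, adjusted p = 0.048) was lost in 16 alternatives. Ass1 had 1610, 1265 and 1272 RPKM in WT and 2080, 2107 and 1874 RPKM in KO and did not pass (0.55, adjusted p = 0.055).

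Hormone axes showed single genes rather than whole lists. In a list of 10 genes for thyroid hormone handling, Dio1, Nrg4 and Thrsp fell. Of these, Dio1 alone acts on the hormone itself, and Thrsp is also counted with fatty acid synthesis. Dio1, the deiodinase that activates thyroid hormone, had 44.5, 63.5 and 64.4 RPKM in WT and 12.4, 19.1 and 15.5 RPKM in KO on a row of 396 bases (-1.81 ± 0.16, adjusted p = 1.8e-05). Nrg4, a secreted growth factor, had 7.69, 6.68 and 6.19 RPKM in WT and 1.37, 1.61 and 0.76 RPKM in KO (-1.82 ± 0.20, adjusted p = 1.2e-04), and the carrier protein Ttr had 2801, 2567 and 2778 RPKM and 2704, 2646 and 3401 RPKM (0.10, adjusted p = 0.66). Of 14 glucocorticoid-responsive genes, Fkbp5 fell from 32.2, 30.4 and 32.9 RPKM to 18.3, 7.29 and 11.5 RPKM (-1.38 ± 0.29, adjusted p = 0.0095) and Sgk1 rose from 11.9, 9.43 and 15.4 RPKM to 21.3, 25 and 50.4 RPKM (1.25 ± 0.26, adjusted p = 0.0085). These targets of 1 receptor thus went opposite ways, and Tat overlapped (-0.22, adjusted p = 0.67). Of 15 genes of the growth hormone axis, Stat5b rose (0.63, adjusted p = 0.0042), the fall of Igfbp4 (-0.28, adjusted p = 0.041) was lost in 12 alternatives, and Igf1 had 343, 308 and 370.4 RPKM in WT and 328, 361 and 335 RPKM in KO (0.01, adjusted p = 0.98).

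Sex-biased genes, which growth hormone pulses govern in mouse liver, went both ways. Of 17 male-biased genes 2 rose and 1 fell, and of 14 tested female-biased genes (22 listed) 2 rose and 4 fell. Hsd3b5, a male-biased steroid enzyme, had 61.1, 65.4 and 33 RPKM in WT and 171, 168 and 119.5 RPKM in KO (1.55 ± 0.30, adjusted p = 0.0057), and Elovl3 was the other rise. Several major urinary protein genes, also male-biased, were not in this list. Of these, Mup16 (-1.48, adjusted p = 0.018), Mup17 (-1.37, adjusted p = 0.01) and Mup18 (-1.7, adjusted p = 0.0097) fell, and Mup3 overlapped between the groups. Mup8 (-1.05, adjusted p = 0.023) fell as well. These genes are similar in sequence, and how shared reads were counted is not known. The female-biased thioesterase Acot3, similar in sequence to Acot1, had 7.72, 3.45 and 12.8 RPKM in WT and 0.112, 0.326 and 0.474 RPKM in KO (-2.65 ± 0.36, adjusted p = 5.6e-04). Cyp17a1 (-1.60, adjusted p = 0.046) fell with a call lost in 9 alternatives, and Cyp2a4, Cyp2b10 and Sult1e1 were given above. Serpina1e, with 3355, 3963 and 1769 RPKM in WT and 1745, 2037 and 445 RPKM in KO (-1.30, adjusted p = 0.27), and Prlr (0.66, adjusted p = 0.13) did not pass.

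Of 26 acute phase, coagulation and complement genes, most of them made by hepatocytes for plasma, 10 rose and 1 fell, with a median of 0.25. The 3 fibrinogen chains are translated into 1 clotting protein. Fgb had 2565, 2233 and 2007 RPKM in WT and 5186, 3478 and 3982 RPKM in KO (0.88 ± 0.19, adjusted p = 0.0099), and Fga (0.87) and Fgg (0.91) rose by like amounts. Apcs had 43.2, 53 and 55.9 RPKM in WT and 189, 112 and 119.9 RPKM in KO (1.42 ± 0.22, adjusted p = 0.0015). The copper carrier ceruloplasmin, Cp, had 455, 392 and 445 RPKM in WT and 880.0, 809.6 and 958 RPKM in KO (1.03 ± 0.11, adjusted p = 7.4e-05), and Itih3 had 634, 606 and 611 RPKM and 1582, 1123 and 1274 RPKM (1.09 ± 0.16, adjusted p = 0.0011). Saa4, a constitutive serum amyloid, fell from 107, 107 and 117 RPKM to 44.4, 50.3 and 42.5 RPKM (-1.25 ± 0.17, adjusted p = 5.7e-04), and the haptoglobin gene Hp overlapped (0.24, adjusted p = 0.41). After median-ratio scaling 6 rose and 3 fell.

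Cell cycle genes gave 2 rises and 1 fall among 20 tested of 25 listed. Besides Cdkn1a, Ccng2, an unconventional cyclin, had 2.24, 2.76 and 3.13 RPKM in WT and 5.53, 5.73 and 8.71 RPKM in KO (1.03 ± 0.16, adjusted p = 0.0014). Wee1, the kinase that holds cells before mitosis and a known E-box target, had 6.42, 7.19 and 7.22 RPKM in WT and 1.64, 3.07 and 2.49 RPKM in KO (-1.24 ± 0.19, adjusted p = 0.0012). Pcna, a proliferation gene, overlapped (0.20, adjusted p = 0.5). Of 10 genes that the study tied to miR-378 and the clock, a choice that is not independent of these samples, 6 were tested. Cdkn1a and Pdk4 rose and Por fell. The number that fell was 2 under median-ratio scaling, quantile normalization, a pseudocount of 0.1 and the fit of the 6 CT12 libraries. Gadd45a had 1.47, 3.12 and 2.87 RPKM in WT and 0.68, 0.988 and 1.08 RPKM in KO (-0.83, adjusted p = 0.051), Ccne1 had 1.73, 3.7 and 1.59 RPKM and 1.37, 1.24 and 0.602 RPKM (-0.66, adjusted p = 0.11), and Ppargc1b overlapped (-0.38, adjusted p = 0.27). Bbc3, Bcl2, Eid2 and Runx3 stayed under the filter.

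Tubulins carried most of the 4 rises among 18 cytoskeleton genes. Tuba8 had 0.836, 0.429 and 0.302 RPKM in WT and 2.15, 4.38 and 2.93 RPKM in KO (1.43 ± 0.24, adjusted p = 0.0026), and Tubb5 had 8.54, 12.2 and 12.4 RPKM and 18.2, 19.8 and 22.7 RPKM (0.83 ± 0.20, adjusted p = 0.022). The fourth was the common reference gene Actb, with 482, 449 and 459 RPKM in WT and 535, 653 and 589 RPKM in KO on a row of 401 bases (0.35, adjusted p = 0.04), lost in 11 alternatives and at an adjusted p of 0.13 after median-ratio scaling. Actg1 overlapped (-0.24, adjusted p = 0.48), and the reference gene Gapdh had 599, 527 and 544 RPKM in WT and 383, 425 and 429.8 RPKM in KO (-0.43, adjusted p = 0.21).

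Protein homeostasis lists held few calls. Clpx, the chaperone of a mitochondrial protease, was 1 of 16 genes of mitochondrial quality control called, and its row of 577 bases had 33.3, 31 and 38.3 RPKM in WT and 186, 178 and 245 RPKM in KO (2.52 ± 0.15, adjusted p = 1.7e-06). Hspa9, the main mitochondrial chaperone, had 189, 163 and 169.6 RPKM in WT and 167, 162 and 160.3 RPKM in KO (-0.09, adjusted p = 0.54). Of 18 heat shock genes Hspb1 fell, from 6.52, 6.18 and 3.88 RPKM to 0.922, 2.76 and 1.78 RPKM (-1.24 ± 0.28, adjusted p = 0.015), while Hspa8 overlapped (-0.12, adjusted p = 0.83). Of 21 endoplasmic reticulum genes Herpud1 fell (-0.71, adjusted p = 0.037), lost in 7 alternatives, and Hsp90b1 did not pass (-0.15, adjusted p = 0.61). Among 37 proteasome subunits Psmb10, of the immunoproteasome, fell (-0.64, adjusted p = 0.004), Psmd11 rose (0.48, adjusted p = 0.017), a call lost after median-ratio scaling (adjusted p = 0.058), and Psma3 overlapped (-0.10, adjusted p = 0.51). Of 16 iron and heme genes, Tmprss6, which restrains hepcidin, and Hmox1 rose, and Fech, the last enzyme of heme synthesis, fell. Tmprss6 had 127, 116 and 108 RPKM in WT and 161, 153 and 159.8 RPKM in KO (0.43 ± 0.08, adjusted p = 0.0034), Fech had 48.4, 48.7 and 46.9 RPKM and 36.4, 37.1 and 42.1 RPKM (-0.31 ± 0.08, adjusted p = 0.028, lost in 6 alternatives), and transferrin, Trf, overlapped (0.11, adjusted p = 0.56).

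In housekeeping lists the shifts were small, and the number called depended on the fit. Of 79 ribosomal protein genes 27 rose by 0.27 to 0.52, and 4 did so after median-ratio scaling, with the median going from 0.28 to 0.18. All 79 differences were positive, against 6804 of the 10460 genes tested, and 61 of the 79 had no overlap, against 29.3% of all genes. Quantile normalization called 26, with a median of 0.24, and the fit of the 6 CT12 libraries alone called 6 at a median of 0.28. Rps12 (0.52, adjusted p = 0.0081), Rpl13a (0.50, adjusted p = 0.027, lost after median-ratio scaling) and Rplp1 (0.46, adjusted p = 0.0078) led this list, whose genes have many pseudogene copies that can share reads. Of 74 respiratory chain genes only Ndufv3 was called (0.51, adjusted p = 0.0047), and after median-ratio scaling 1 rose and 3 fell. Atp5b overlapped (-0.01, adjusted p = 0.96). Of 28 splicing factors none was called by limma, with 2 at an unadjusted p under 0.05, and Hnrnpk had 156, 155 and 142 RPKM in WT and 157, 163 and 179 RPKM in KO (0.14, adjusted p = 0.29).

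**Figure D4:**
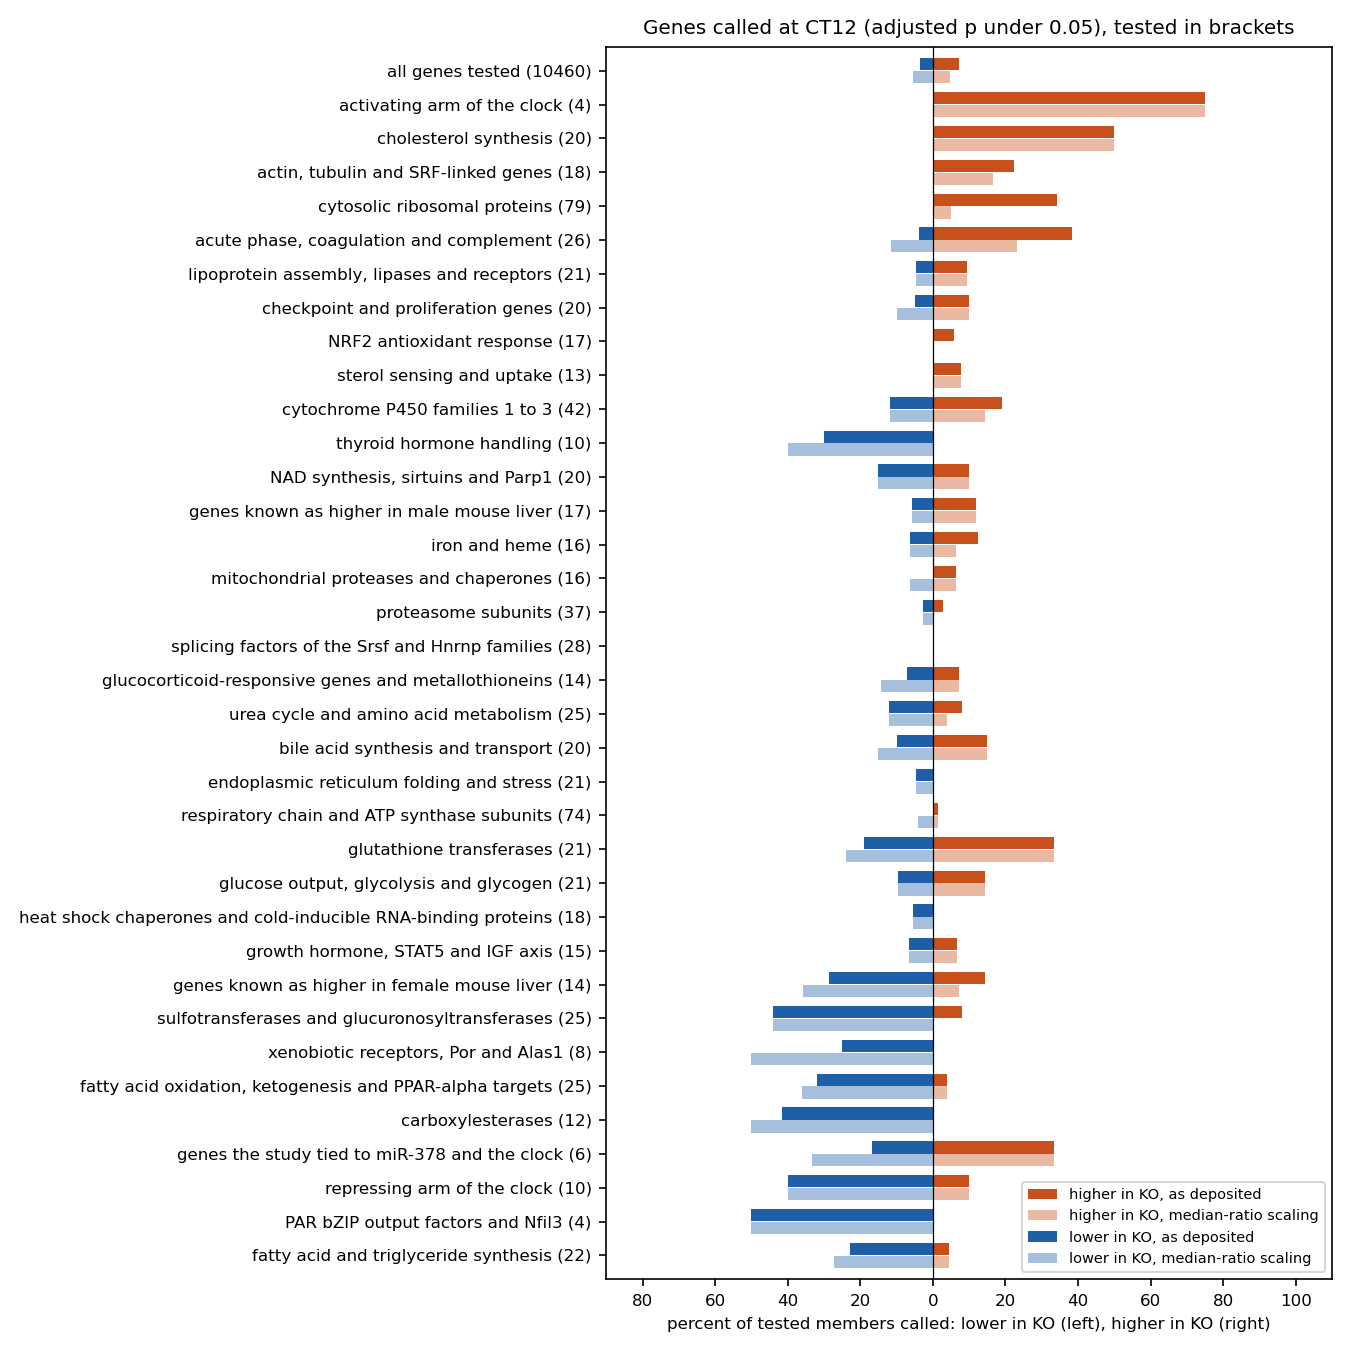
Percent of the tested members of each list (number in brackets) called higher (orange, right) and lower (blue, left) in KO at CT12, with the values as deposited in full colour and after median-ratio scaling in pale colour, the lists in order of their median log2 fold change. Cholesterol synthesis keeps 10 of 20 rises under both scalings, ribosomal proteins go from 27 to 4, and carboxylesterases from 5 to 6 falls.

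A further question was whether the difference between KO and WT at CT12 differed from that at CT0. This interaction passed the threshold for 165 genes (1.58%), and for 29 of the genes named here. Without 1 of 8 of the libraries, WT replicates 1, 2 and 3 and KO replicate 3 at CT0 and WT replicates 1 and 3 and KO replicates 2 and 3 at CT12, the number was 88 to 107. Elovl3 differed by -0.09 at CT0 and 4.85 at CT12 (adjusted p = 7.2e-07), so that its rise was seen at CT12 alone of the times measured. Gys2 differed by -0.06 and -1.88 (adjusted p = 4.3e-04), Nampt by 0.14 and -1.42 (adjusted p = 4.3e-04) and Clpx by 0.14 and 2.52 (adjusted p = 2.2e-04). The signs of Tef and Per2 were opposite at the times, 0.94 and -0.94 for Tef (adjusted p = 1.3e-04) and 1.12 and -0.75 for Per2 (adjusted p = 0.0035). In contrast, for Cry1 the interaction did not pass (adjusted p = 0.97), nor for Gstm3 (adjusted p = 0.82), Cyp2c55 (adjusted p = 0.97) or Ces1d (adjusted p = 0.17).

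**Figure D5:**
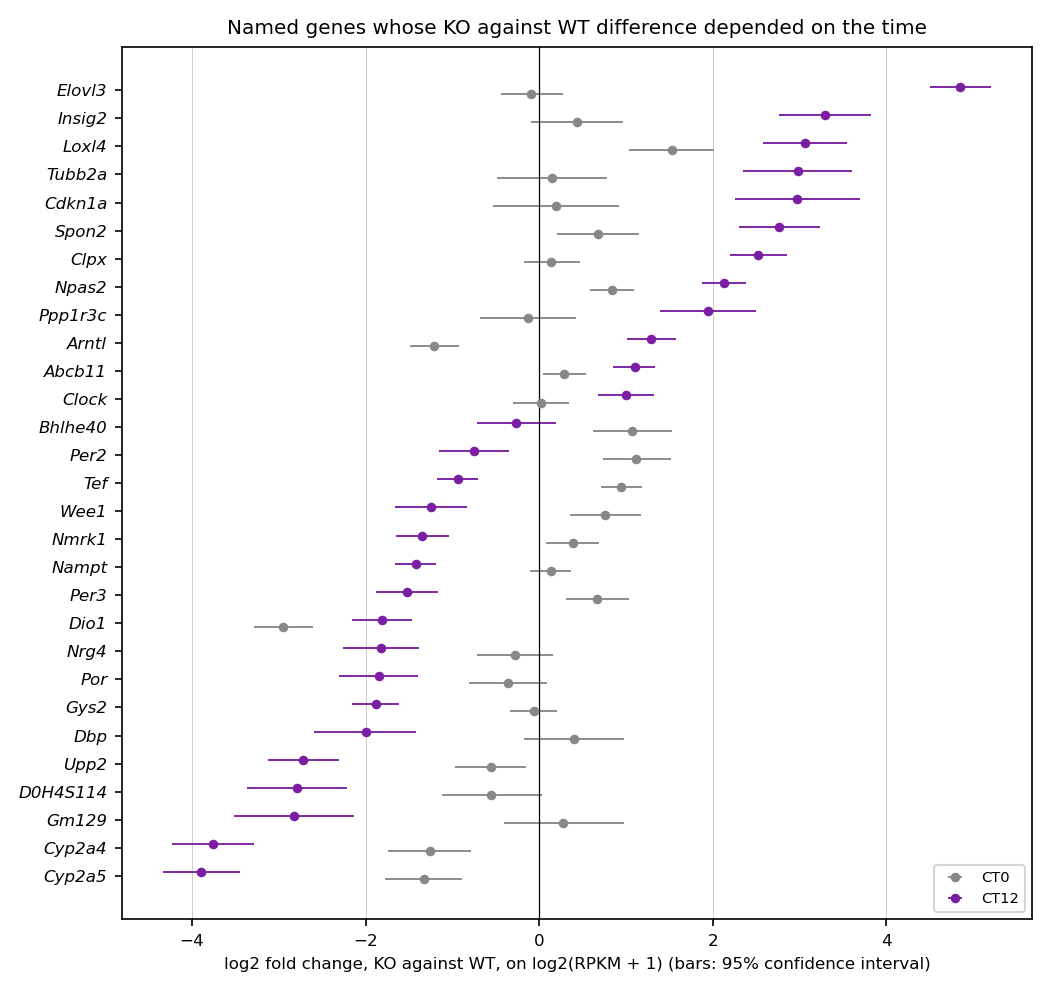
Difference of KO from WT at CT0 (grey) and CT12 (purple), on log2(RPKM + 1), for the 29 named genes with an adjusted interaction p under 0.05, with 95% confidence intervals as bars. Elovl3, Tubb2a, Cdkn1a and Clpx lie between -0.09 and 0.19 at CT0 and above 2 at CT12, and Arntl, Per2, Per3, Tef, Wee1 and Nmrk1 are among the genes on opposite sides of 0 at the times.

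Markers of other cells also moved. Of 9 neutrophil markers 5 were tested, and S100a8 and S100a9, the calcium-binding proteins of these cells, rose. S100a8 had 2.69, 1.91 and 3.04 RPKM in WT and 18.8, 10 and 6.53 RPKM in KO (1.75 ± 0.43, adjusted p = 0.023), and S100a9 had 3.88, 2.66 and 3.93 RPKM and 17.3, 13.9 and 9.01 RPKM (1.65 ± 0.39, adjusted p = 0.018), and the call of S100a8 was lost in 5 alternatives. The summed level of the 9 was 6.36 to 9.43 RPKM in WT and 18.7 to 45.3 RPKM in KO, with the defining marker Ly6g at 0 in 5 of 6 libraries, and Ngp overlapped (0.92, adjusted p = 0.23). Of 7 red cell markers found, 5 were tested and the globins Hba-a2 (1.19, adjusted p = 0.013) and Hbb-b2 (1.22, adjusted p = 0.019) rose, with sums of 107 to 190 RPKM in WT and 246 to 307 RPKM in KO, while Hbb-b1 did not pass (1.06, adjusted p = 0.074). Globin genes are similar in sequence and their split is uncertain. Of 9 bile duct markers 3 were tested and all rose, among them Spp1 from 32.5, 47.7 and 26.5 RPKM to 121, 106 and 87 RPKM (1.56 ± 0.22, adjusted p = 7.3e-04) and Pkhd1 (0.49, adjusted p = 0.029), whose call was lost in 8 alternatives, so that 2 of the 3 were called under median-ratio scaling, quantile normalization and the fit of the 6 CT12 libraries, while the defining keratins Krt7 and Krt19 stayed under 1 RPKM in every library. The sums were 31 to 54.5 RPKM in WT and 94.9 to 131 RPKM in KO. Of 10 exocrine pancreas markers only Cela1 was tested and rose (1.69, adjusted p = 3.1e-04), and 6 were at 0 in all 6 libraries. The part of blood or bile duct RNA in the rises of other genes was not tested.

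None of 12 Kupffer cell, 12 endothelial or 9 stellate cell markers tested was called by limma, with 0, 1 and 3 at an unadjusted p under 0.05. Clec4f (0.26, adjusted p = 0.51), Dpp4 (0.08, adjusted p = 0.59) and Dcn (0.39, adjusted p = 0.08) were the most abundant of each. The difference was positive for 12 Kupffer cell, 10 endothelial and 6 stellate cell markers, against 6804 of the 10460 genes tested. The medians of these lists were 0.21, 0.21 and 0.1, against 0.08 over all genes, and 0.12, 0.12 and 0.02 after median-ratio scaling, against -0.001. Of the T, B and NK cell markers only Ptprc (0.11, adjusted p = 0.72) and of the adipocyte markers only Fabp4 (0.07, adjusted p = 0.89) was tested. Among hepatocyte markers Alb and Cebpa (-0.41, adjusted p = 0.026, lost in 5 alternatives) fell and Fgb rose. Of 11 pericentral markers Lgr5 (0.91, adjusted p = 0.006) and Slc1a4 (1.31, adjusted p = 0.0022) rose, and of 11 periportal markers Asl fell. Lgr5 had 0.65, 0.98 and 0.39 RPKM in WT and 1.54, 3.13 and 1.9 RPKM in KO. Slc1a4 had 0.37, 0.53 and 0.48 RPKM in WT and 2.76, 3.47 and 1.81 RPKM in KO. Both passed the filter through KO alone, and the median of the 11 pericentral markers was -0.03.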

How the data were processed

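Total RNA of mouse liver was sequenced from TruSeq v2 libraries, and the authors deposited 1 table per sample of RPKM values for 46585 transcripts. RPKM values are normalised and are not counts. The submitters' processing notes name TopHat2, bedtools 2.19.1 and the mm9 build with no role, and the annotation release and the handling of shared reads are not given in the sources used here. Groups came from the sample titles.

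Transcript lengths and positions came from GENCODE vM1 (NCBIM37), which held 95.5% of the rows. Of the low values, 96.4% to 96.9% lay within 0.1 of a whole read, which gave the depths. The row with the highest mean RPKM stood for each of 22322 symbols, and this row was under 600 bases for 1229 tested genes.

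Values were analysed as log2(RPKM + 1) with limma 3.58.1 in R 4.3.3, with 4 group means over 12 libraries, a variance trend and Benjamini-Hochberg adjustment over 10460 genes at 0.05. All adjusted p-values come from limma. An exact permutation test of 3 against 3 cannot go below 0.1. The titles number the replicates, and p-values measure the spread between these samples. The code was tested on simulated data. Alternatives changed the pseudocount, filter, scaling, transcript row, libraries, replicate block and fold limit.

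The members and gene lists were chosen with earlier results of these data known. Named genes were all clock and miR-378 list genes, Actb and Gapdh, the 12 largest called rises and falls without overlap, for each other list the 3 largest called rises and falls and the most abundant member not called, and the 5 largest interactions of each sign. Further genes of a list are named as its called members, and genes with a printed motif were named by that motif and their call. Some genes, 1 clock gene among them, are not reported here.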

Additional observations from a re-analysis of the deposited data

Results flagged for a closer look

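In 29 named genes the KO effect at CT12 was unlike that at CT0, by an interaction term in limma with an adjusted p under 0.05. The values below are the CT12 difference minus the CT0 difference on log2(RPKM + 1). The pattern was chosen by this test and carries no further one.

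Among clock genes the interaction was 2.5 for Arntl, 0.98 for Clock and 1.29 for Npas2, so these activators stood higher in KO at CT12 than the CT0 difference gave. It was negative for the repressors and PAR bZIP genes, with -3.11 for Gm129, -2.19 for Per3, -1.87 for Per2, -1.34 for Bhlhe40, -2.41 for Dbp and -1.89 for Tef. Bhlhe40 did not pass the test at CT12 itself.

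Positive interactions outside the clock were led by 4.93 for Elovl3. They were 2.85 for Insig2, 2.83 for the tubulin gene Tubb2a, 2.77 for Cdkn1a and 2.38 for the mitochondrial chaperone Clpx. The values were 2.08 for Spon2, 2.07 for the glycogen-targeting subunit Ppp1r3c, 1.54 for Loxl4 and 0.81 for the bile salt pump Abcb11. Dio1 also had a positive value of 1.14, since it was further below WT at CT0 than at CT12.

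Negative interactions were -2.56 for Cyp2a5 and -2.5 for Cyp2a4, which share reads. They were -2.24 for D0H4S114, -2.16 for Upp2 and -2.0 for the mitotic kinase Wee1. In NAD salvage the values were -1.74 for Nmrk1 and -1.56 for Nampt. The remaining values were -1.82 for the glycogen synthase Gys2, -1.54 for Nrg4 and -1.49 for Por.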

How the results depend on the processing

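Of 122 named genes called at CT12, 87 stayed called in every alternative run and 20 named genes changed their call in 5 or more of up to 20 alternatives. Over 3410 pairs of a gene and an alternative, 3164 kept direction and side of the threshold, 217 lost the call, 28 gained it and 1 reversed. The reversal was Alb, at 0 under quantile normalization, which by construction gives the most abundant gene the same value in every library. Asking for a log2 change of 1 or more left 270 called genes, 163 higher and 107 lower, and 90 interactions. Leaving out 1 library at a time gave 725 to 1301 called genes, of which 447 to 855 were higher, and 88 to 155 interactions. Both lowest counts at CT12 were without WT_CT12 replicate 3, and the lowest number of interactions was without WT_CT0 replicate 2. The cause was not tested, beyond the fewer samples.

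Median-ratio scaling gave 505 higher and 572 lower genes, or 46.9% higher among calls against 66.4%, and quantile normalization gave 562 and 520, or 51.9%. The fit of the 6 CT12 libraries alone called 904 genes, of which 814 were shared with the 1136. Same-numbered samples did not deviate together, with a mean correlation of 0.00948 against -0.00467 for different numbers, and -0.00332, 0.144 and 0.132 for the CT12 pairs, so the numbers were not taken as pairs. A replicate block gave 1086 called genes, 713 higher and 373 lower, with 1009 shared, and 138 interactions. Sequencing depth limits genes of a few reads such as Npas2 in WT and Rgs16 in KO, where the counting intervals are wide.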
